A study of Mus musculus with 6 samples.

Results

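The genes described here were 5 secreted ligands of the BMP and TGF-beta family (*Bmp2*, *Bmp4*, *Bmp7*, *Tgfb1* and *Tgfb2*) and 5 genes that these signals switch on in responding cells, namely the inhibitory Smads *Smad6* and *Smad7* and the Id genes *Id1*, *Id2* and *Id3*. They were picked by gene symbol, and all 10 were found among the 17784 genes listed. RNA was sequenced from the corneal epithelium of control mice (3 samples, controls 1 to 3) and of Prrx1-CreERT;Ptch1 f/f mice (3 samples, Ptch1Prrx1 1 to 3), in which *Ptch1*, the receptor that holds Hedgehog signaling off, is deleted after tamoxifen. Every sample, controls included, came from mice labelled as 10 weeks old given 3 doses of tamoxifen, with a treatment labelled as 2 months long, and the epithelium was lifted from the cornea with EDTA. The labels describe the controls only as ctrl or WT, so whether they carried the Cre or the floxed alleles was not given. Prrx1-CreERT drives recombination in keratocytes, the cells of the corneal stroma, and in corneal endothelium and other mesenchyme of the eye, so the sequenced layer is not the one the Cre was chosen to target. The comparison asks how RNA of these ligands and of their response genes differed in epithelium lying over Ptch1-deleted stroma.

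BMP and TGF-beta ligands bind pairs of type I and type II receptor kinases, which phosphorylate receptor Smads: Smad1, Smad5 and Smad9 mainly below BMP receptors, Smad2 and Smad3 mainly below TGF-beta receptors. These enter the nucleus with the shared partner Smad4 and act on target genes. Among the targets are the inhibitory Smads, which act back on the receptors, *Smad6* chiefly on BMP receptors and *Smad7* on both branches, and the Id genes, whose proteins lack a DNA-binding region and hold E proteins and other helix-loop-helix factors off DNA. In the cornea, TGF-beta is best known from wound repair, where it turns keratocytes into contractile myofibroblasts.

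Each library held between 20296741 and 20625813 expected counts, so depth was nearly equal, and 3 counts in a library corresponded to 0.145 to 0.148 CPM (counts scaled to the library total). A gene was called when its adjusted p was at most 0.05 and its change at least 2-fold, and 12999 genes passed the filter on low counts and were tested. On the leading axis of a principal component analysis, which carried 58.1% of the variance, the controls lay between -33.7 and -26.5, Ptch1Prrx1 2 and 3 at 18.3 and 19.1, and Ptch1Prrx1 1 apart from these at 51.7. *Ptch1* itself had 7.31, 9.70 and 10.2 TPM (transcripts scaled to gene length and library total) in controls 1 to 3 and 5.28, 6.33 and 7.01 TPM in Ptch1Prrx1 1 to 3, a log2 fold change of -0.51 (SE 0.13, adjusted p = 0.0401). The direction held in all 16 alternative fits, but the adjusted p was at most 0.05 in only 8 of them. The corneal keratin *Krt12* stood at 37107 to 49487 TPM in all 6 libraries, while the keratocyte gene *Kera* was at 0 to 0.07 TPM and the leukocyte gene *Ptprc* at 0.20 TPM or less. Other genes of the same stromal and immune lists were higher. *Pdgfra* was at 3.26 to 6.91 TPM, *Col1a2* at 26.0 TPM in control 3, *Itgam* at 67.0 to 129 TPM and *Cd68* at 45.3 to 65.5 TPM. Of 12 corneal epithelial markers 1 was called, *Krt14*, a keratin of basal cells, which was higher by 2.81 on the log2 scale. In whole tissue layers such as these, fewer cells of a type and less RNA per cell cannot be told apart.

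Of the 9 members that passed the filter, 2 were called higher in Ptch1Prrx1 epithelium, *Bmp2* and *Smad7*, and 0 were called lower. Among all tested genes 2.34% were called higher and 0.892% lower. On the adjusted p alone, 3 members were higher (*Bmp2*, *Smad7* and *Id1*) and 0 lower, against 7.61% and 6.41% of all genes. The median log2 fold change was -0.19 over the 4 tested ligands and 0.54 over the 5 response genes, beside -0.01 over all tested genes. Single values ran from -0.92 (*Tgfb2*) to 1.56 (*Bmp2*) over the ligands and from -0.37 (*Smad6*) to 1.16 (*Smad7*) over the response genes. Both roles thus held genes on either side of 0. The most abundant members, *Id2* among the Id genes and *Tgfb1* among the ligands, were not called, and the called ligand was near the bottom of the range. The samples of the groups did not overlap for 4 members with higher and 1 with lower levels in Ptch1Prrx1 epithelium, a separation that 19.7% of tested genes showed upward and 20.3% downward, so it adds little for a single gene.

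**Figure D1:**
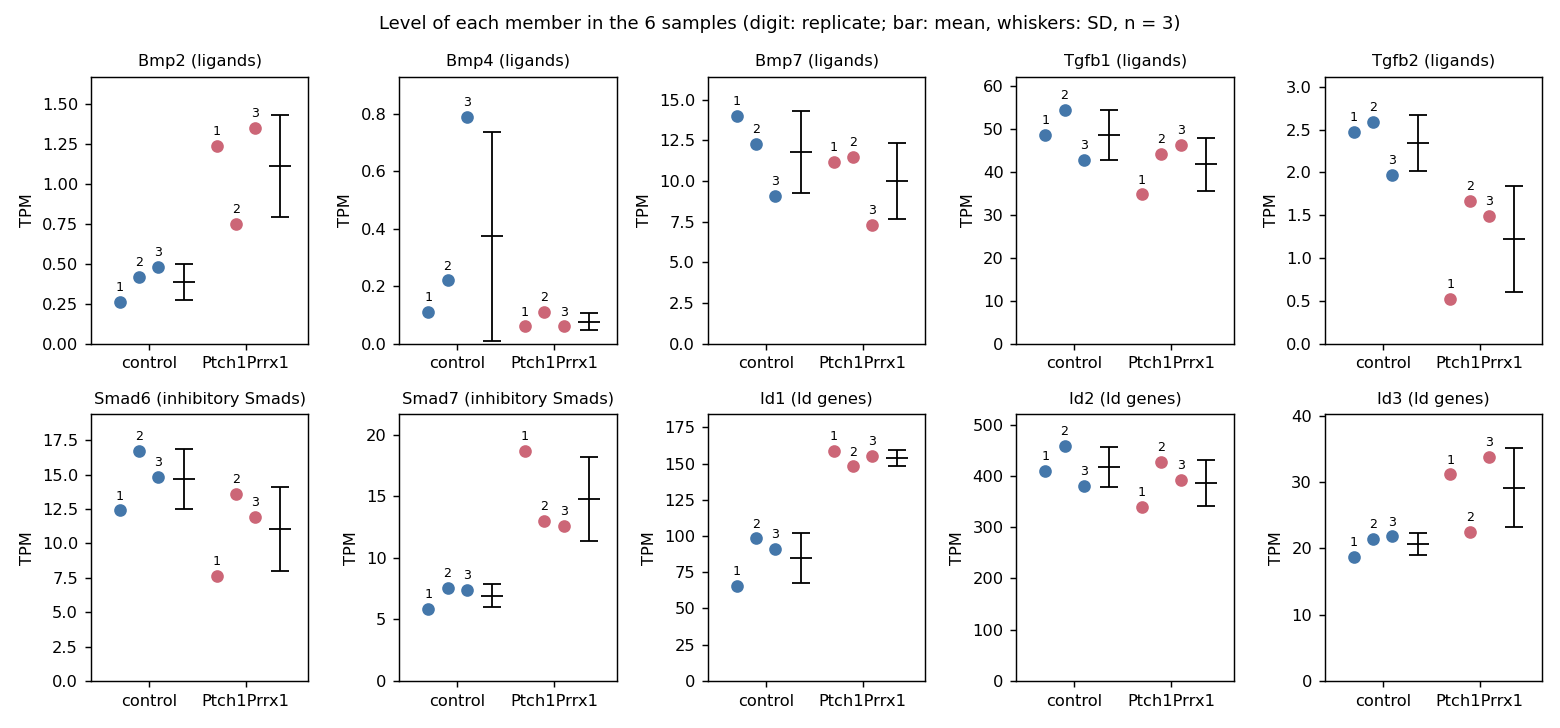
Level of each of the 10 genes in every sample, in TPM on axes that start at 0, with the replicate number beside each point and the mean and SD of the 3 samples drawn to the right of each group. *Bmp2*, *Smad7*, *Id1* and *Id3* have every Ptch1Prrx1 sample above every control, *Tgfb2* has every one below, and the other 5 overlap, with *Id2* at 339 to 458 TPM throughout.

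In TPM, which accounts for gene length, the control means ran from *Id2* (416 ± 38.9, SD, n = 3) through *Id1* (85.0 ± 17.2), *Tgfb1* (48.6 ± 5.88), *Id3* (20.6 ± 1.67), *Smad6* (14.7 ± 2.18), *Bmp7* (11.8 ± 2.50), *Smad7* (6.93 ± 0.934) and *Tgfb2* (2.34 ± 0.329) to *Bmp2* (0.387 ± 0.114) and *Bmp4* (0.373 ± 0.365). The samples of neighbours in this order overlapped for *Smad6* and *Bmp7* and for *Bmp2* and *Bmp4*. *Id2* lay at the percentile 98.3 of control levels over all listed genes, *Tgfb1* at 82.1 and *Bmp2* at 27.3. In Ptch1Prrx1 epithelium *Smad7* (14.8 ± 3.41) stood above *Smad6* (11.0 ± 3.08) and *Bmp7* (9.99 ± 2.35), with samples that overlapped between *Smad7* and *Smad6* and between *Smad6* and *Bmp7*. *Bmp2* (1.11 ± 0.319) overlapped *Tgfb2* (1.23 ± 0.619) there.

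*Bmp2*, a ligand of the BMP branch, was the least abundant of the tested ligands and the one that rose. Its level was 0.26, 0.42 and 0.48 TPM in controls 1 to 3 and 1.24, 0.75 and 1.35 TPM in Ptch1Prrx1 1 to 3. Every Ptch1Prrx1 sample was above every control. These levels rested on 9, 14 and 16 counts in the controls and 43, 25 and 44 counts in Ptch1Prrx1 samples. The log2 fold change was 1.56 (SE 0.34, 95% interval 0.77 to 2.35, adjusted p = 0.0278), or 2.96-fold. It kept its direction but lost its call without control 1, 2 or 3 and without Ptch1Prrx1 1 or 3, with log2 fold changes of 1.36 to 1.78 over all samples left out in turn and adjusted p values up to 0.105, and it was kept without Ptch1Prrx1 2 (0.0327). On log2(TPM + 1) with no TPM filter, a scale that compresses low levels, the difference was 0.60 in limma (adjusted p = 0.0562).

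*Bmp7*, another BMP ligand and a more abundant one, had 14.0, 12.3 and 9.08 TPM in controls and 11.2, 11.5 and 7.28 TPM in Ptch1Prrx1 samples. The groups overlapped, with the third sample of each group the lowest. The log2 fold change was -0.19 (95% interval -0.75 to 0.36, adjusted p = 0.610). *Bmp4* was near the limit of detection, with 2.05, 4.10 and 15.1 counts in controls and 1.04, 2.01 and 1.01 in Ptch1Prrx1 samples. It did not pass the filter and was not tested, and no fold is given, since all 3 Ptch1Prrx1 libraries and control 1 lay below 3 counts. Control 3, which held most of the *Bmp4* counts, also had the highest summed level of 11 keratocyte and stromal markers, 42.4 TPM against 8.05 to 11.7 in the other 5 libraries, and the part of those cells in the *Bmp4* value was not tested. Of those markers 5 were tested and 0 called.

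*Tgfb1*, the main TGF-beta isoform of this epithelium, had 48.6, 54.5 and 42.8 TPM in controls and 34.8, 44.3 and 46.4 TPM in Ptch1Prrx1 samples. The groups overlapped, and Ptch1Prrx1 1 was the lowest of the 6. The log2 fold change was -0.18 (SE 0.12, 95% interval -0.46 to 0.10, adjusted p = 0.322). *Tgfb2* had 2.47, 2.59 and 1.97 TPM in controls and 0.52, 1.67 and 1.49 TPM in Ptch1Prrx1 samples. Every Ptch1Prrx1 sample lay below every control. Its log2 fold change of -0.92 (SE 0.36, unadjusted 95% interval -1.76 to -0.08) had an adjusted p of 0.123 and was -0.57 without Ptch1Prrx1 1, the sample with the lowest value. Over the 5 ligands the summed level was 65.4, 70.0 and 55.1 TPM in controls and 47.8, 58.3 and 56.6 TPM in Ptch1Prrx1 samples. *Tgfb1* made up 72.8% to 82.0% of this sum in all 6 samples. *Bmp2* made up 0.397%, 0.600% and 0.872% of it in controls and 2.59%, 1.29% and 2.39% in Ptch1Prrx1 samples, so the ligand that rose remained a small share of ligand RNA. *Tgfb2* relative to *Tgfb1* was 0.0461 to 0.0508 in controls and 0.0149, 0.0377 and 0.0321 in Ptch1Prrx1 samples.

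**Figure D2:**
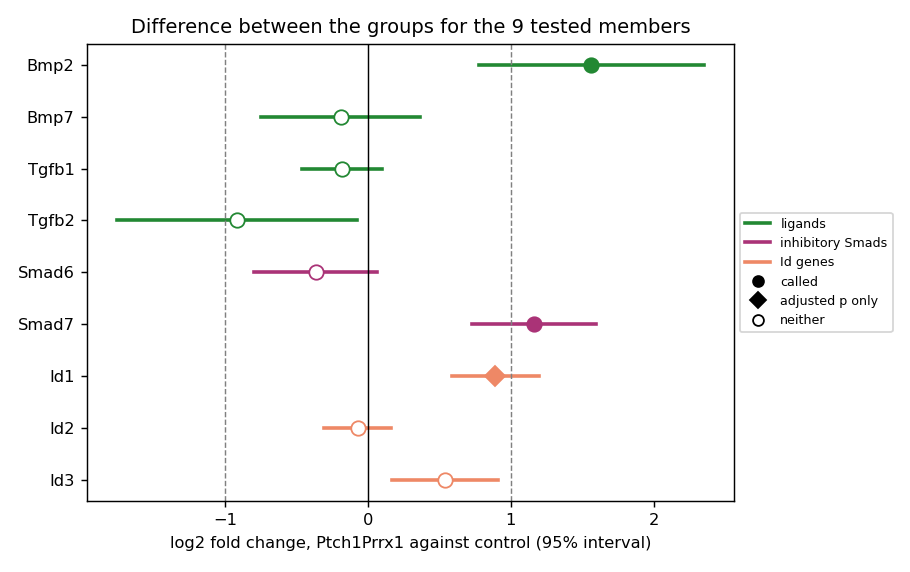
Log2 fold change of Ptch1Prrx1 against control epithelium for the 9 tested genes, with 95% intervals, ordered by role. *Bmp2* (1.56), *Smad7* (1.16) and *Id1* (0.89) pass the adjusted p, and *Tgfb2* has the lowest estimate (-0.92) with an interval that reaches -0.08.

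*Smad7*, whose protein recruits ubiquitin ligases to the receptors of both branches, rose in Ptch1Prrx1 epithelium while *Smad6*, the inhibitor directed mainly at BMP receptors, was not called. *Smad7* had 5.85, 7.52 and 7.41 TPM in controls and 18.7, 13.0 and 12.6 TPM in Ptch1Prrx1 samples. Every Ptch1Prrx1 sample was above every control, and Ptch1Prrx1 1 was the highest. These were 226, 291 and 293 counts against 736, 525 and 483. The log2 fold change was 1.16 (SE 0.19, 95% interval 0.73 to 1.60, adjusted p = 0.0133), or 2.24-fold. Without Ptch1Prrx1 1 it was 0.95 with an adjusted p of 0.00896, below the 2-fold minimum, and without control 2 the adjusted p was 0.0672. *Smad6* had 12.4, 16.7 and 14.9 TPM in controls and 7.62, 13.6 and 11.9 TPM in Ptch1Prrx1 samples. The groups overlapped, with Ptch1Prrx1 1 the lowest of the 6. Its log2 fold change was -0.37 (SE 0.18, 95% interval -0.80 to 0.06, adjusted p = 0.205). The ratio of *Smad7* to *Smad6* TPM was 0.472, 0.449 and 0.499 in controls and 2.45, 0.957 and 1.05 in Ptch1Prrx1 samples. Both genes are feedback inhibitors of the same receptor family, and in controls *Smad6* was the more abundant in each sample.

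Promoter sequence bears on these genes because Smad complexes bind DNA at short motifs. Of the 10 genes, 6 had a promoter in the RefSeq table used (*Bmp4*, *Tgfb1*, *Tgfb2*, *Smad6*, *Id2* and *Id3*). *Bmp2*, *Bmp7*, *Smad7* and *Id1* had no entry. The windows reach 250 bases before to 50 after the start. They were searched on both strands for the Smad palindrome GTCTAGAC and for the GC-rich motif GGCGCC linked to Smad1 and Smad5, each of which reads the same on either strand. The palindrome was in 0.213% of 32851 promoters of this length and the GC-rich motif in 11.9%. *Smad6* held 1 palindrome, starting at position -4 from the start, and *Id2* held 1 GC-rich motif, starting at -231. *Id3*, *Bmp4*, *Tgfb1* and *Tgfb2* held neither of these letter strings in the window. The stretches below are printed to show the 2 matches and, for contrast, the promoter of *Id3*, an Id gene without either. Capitals mark the motifs. The letters are RefSeq's, build GRCm38.p6, 5′ to 3′ on the gene's strand, from chr9:64022056-64022175 (minus) for *Smad6*, chr12:25096223-25096342 (minus) for *Id2* and chr4:136143702-136143821 (plus) for *Id3*.
Smad6: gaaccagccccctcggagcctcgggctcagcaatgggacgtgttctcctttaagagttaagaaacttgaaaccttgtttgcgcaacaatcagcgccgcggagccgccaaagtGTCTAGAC
Id2: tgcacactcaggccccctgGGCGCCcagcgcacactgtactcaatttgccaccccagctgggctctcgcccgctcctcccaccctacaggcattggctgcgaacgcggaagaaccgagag
Id3: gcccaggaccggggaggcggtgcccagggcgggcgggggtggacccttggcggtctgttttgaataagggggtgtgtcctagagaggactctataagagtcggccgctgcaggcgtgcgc
A match describes letters only and was not compared with any measured binding.

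*Id1* was the Id gene that rose in Ptch1Prrx1 epithelium. It had 65.6, 98.3 and 91.2 TPM in controls and 159, 148 and 155 TPM in Ptch1Prrx1 samples, whose spread (SD 5.45) was narrower than that of the controls (SD 17.2). Every Ptch1Prrx1 sample was above every control. The log2 fold change was 0.89 (SE 0.13, 95% interval 0.59 to 1.19, adjusted p = 0.0112), or 1.85-fold, past the adjusted p and just under the 2-fold minimum. It was 0.76 to 1.00 with each sample left out in turn, and it reached the 2-fold minimum only without control 2. *Id3* had 18.7, 21.4 and 21.8 TPM in controls and 31.1, 22.5 and 33.8 TPM in Ptch1Prrx1 samples. Every Ptch1Prrx1 sample was above every control, with Ptch1Prrx1 2 only just so. Its log2 fold change of 0.54 (SE 0.16, 95% interval 0.17 to 0.91) had an adjusted p of 0.0609 in edgeR and 0.0331 in DESeq2. *Id2* had 410, 458 and 381 TPM in controls and 339, 428 and 392 TPM in Ptch1Prrx1 samples. The groups overlapped and the log2 fold change was -0.07 (95% interval -0.31 to 0.16, adjusted p = 0.651), an interval that does not reach the estimate for *Id1*. A direct test between the Id genes was not run.

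The makeup of Id RNA differed while its sum did not separate the groups. Summed TPM of the 3 Id genes was 495, 578 and 494 in controls and 529, 598 and 581 in Ptch1Prrx1 samples. *Id1* made up 13.3%, 17.0% and 18.5% of it in controls and 30.0%, 24.7% and 26.8% in Ptch1Prrx1 samples, and *Id2* 83.0%, 79.3% and 77.1% against 64.1%, 71.5% and 67.4%. These shares restate the single-gene values above and carry no test of their own.

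**Figure D3:**
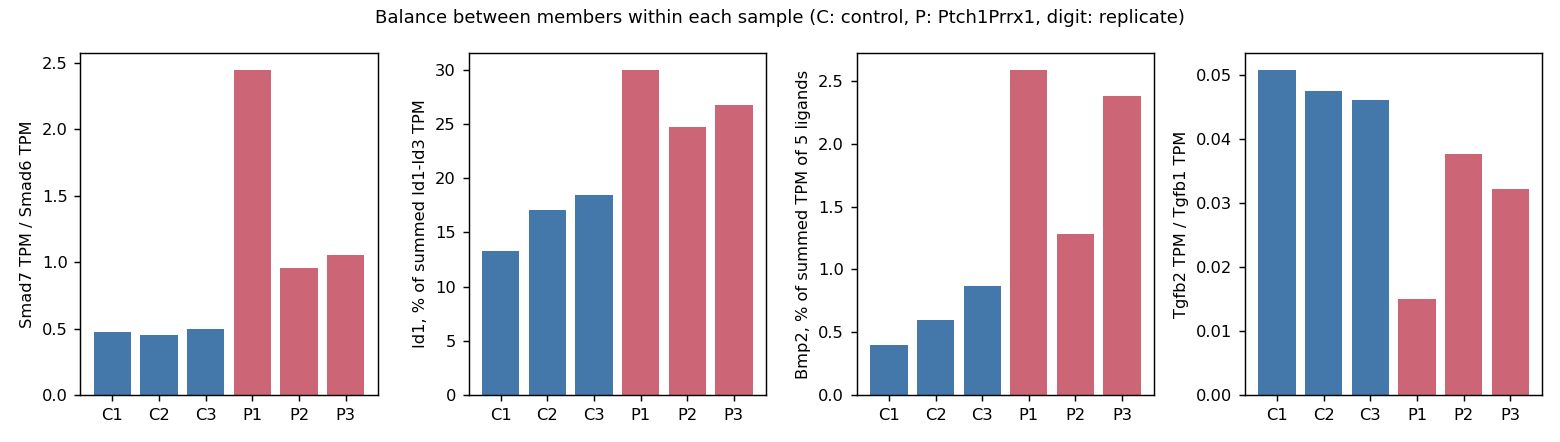
Ratios and shares of TPM within the gene groups for each of the 6 samples. The ratio of *Smad7* to *Smad6* was at most 0.499 in controls and at least 0.957 in Ptch1Prrx1 samples, and the *Id1* share of Id RNA was at most 18.5% and at least 24.7%.

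Markers of other cells and states were measured in the same libraries. Of 22 immediate early genes, switched on quickly by handling, injury or growth factors, 13 were called higher and 0 lower, with a median log2 fold change of 1.49, and their summed level was 2652 to 3057 TPM in controls and 4845 to 5643 TPM in Ptch1Prrx1 samples. Of 6 limbal progenitor markers, 0 were called and 1 was lower on the adjusted p alone. Their summed level was 1054 to 2134 TPM in controls and 1648 to 3689 TPM in Ptch1Prrx1 samples, overlapping and highest in Ptch1Prrx1 1. The 3 tested of 5 conjunctival and goblet markers had 0 called and sums of 1306 to 2115 TPM and 2018 to 4090 TPM, again overlapping and highest in Ptch1Prrx1 1. The immune list had 4 tested of 10 with 0 called, and sums of 118 to 155 TPM and 150 to 198 TPM, which overlapped. Most of each sum came from few genes, so the sums do not stand for all markers of a list. These were *Krt15* in the limbal list, *Krt13* and *Krt4* in the conjunctival list, and *Itgam* and *Cd68* in the immune list. The part of any of these cells or states in the changes of *Bmp2*, *Smad7* and *Id1* was not tested.

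The genes whose pattern over the 6 samples was most like that of *Bmp2*, by the mean absolute difference of centred log2 CPM, were *Hmga2* (0.0896), *Clic6* (0.137) and *Catsperg1* (0.155). *Hmga2* encodes an architectural chromatin protein and had a log2 fold change of 1.62. Genes picked for a like pattern differ in a like way between the groups by that choice, so their fold changes add no support. For *Smad7* they were *Ccdc125* (0.0441), *Tes* (0.0493) and *Slc25a48* (0.0706). *Tes*, a focal adhesion protein, had a log2 fold change of 1.07 and *Ccdc125* one of 1.48. The log2 CPM used here hold edgeR's default prior count, a small number added before the log, which shrinks differences at low counts. A small distance can thus go with unlike fold changes. *Bmp2*, *Hmga2*, *Clic6* and *Ccdc125* were too low for the fits with a TPM filter or at least 10 counts in every sample. Over the 6 fits that left out 1 sample each, *Hmga2*, *Clic6* and *Catsperg1* were each called in 1. *Ccdc125* was called in 0 of these fits, and *Tes* and *Slc25a48* in 3 each.

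The rest of both pathways was looked at through lists by role. Of 105 other pathway genes, 71 were tested, 3 were called higher and 3 lower, and 13 and 9 passed the adjusted p alone, with a median log2 fold change of 0.08. The percentages of all tested genes given above are the background for these counts. Among other ligands, 5 of 18 were tested, and *Inhbb*, the beta B subunit of activins and inhibins, was called lower. It had 3.25, 2.95 and 2.98 TPM in controls and 1.52, 1.26 and 1.51 TPM in Ptch1Prrx1 samples, a log2 fold change of -1.06 (SE 0.16, adjusted p = 0.0123). *Bmp3*, a family member that opposes other BMPs, was higher by 0.95 on the log2 scale and passed the adjusted p alone (0.0239), and *Bmp6* was not called (-0.36, adjusted p = 0.442).

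Of 13 tested receptors and co-receptors 0 were called, 2 were higher and 3 lower on the adjusted p alone. The type I receptor for activin and nodal, *Acvr1b*, was lower by -0.72 (adjusted p = 0.0209), from 60.4, 80.8 and 66.6 TPM to 32.3, 47.1 and 43.3 TPM, with no overlap. *Tgfbr1*, the type I receptor for TGF-beta, was not called (0.09, adjusted p = 0.533). *Tgfbr2*, its type II partner, named here after its values were seen, was higher by 0.90 (adjusted p = 0.00963). *Acvr1*, also named after its values were seen, was higher by 0.34 (adjusted p = 0.0488). Named likewise, *Tgfbr3* (-0.49, adjusted p = 0.0476) and *Rgmb* (-0.42, adjusted p = 0.0262) were lower on the adjusted p alone. The 5 tested receptor and common Smads had log2 fold changes of 0.00042 to 0.20, and 0 passed the adjusted p: *Smad3* was at 0.08 (adjusted p = 0.586) and *Smad4* at 0.20 (adjusted p = 0.123).

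Among 7 tested extracellular antagonists 1 was called, *Lefty1*, an inhibitor of nodal signaling, which was lower. It had 4.93, 4.44 and 2.81 TPM in controls and 0.83, 1.75 and 1.62 TPM in Ptch1Prrx1 samples, a log2 fold change of -1.49 (SE 0.34, adjusted p = 0.0322). *Crim1* (-0.27, adjusted p = 0.0722) and *Twsg1* (0.30, adjusted p = 0.0618) bind BMPs outside the cell and were not called. Among 10 tested genes of TGF-beta latency and activation, 3 were higher and 1 lower on the adjusted p, and *Ltbp1*, which holds latent TGF-beta in the matrix, was called higher. Its level was 0.23, 0.35 and 1.06 TPM in controls and 10.6, 3.32 and 5.04 TPM in Ptch1Prrx1 samples, a log2 fold change of 3.68 (SE 0.61, adjusted p = 0.0146). *Ltbp4* was not called (0.02, adjusted p = 0.948). *Itgb5*, an integrin subunit, was lower on the adjusted p alone (-0.41, adjusted p = 0.0171), while *Thbs1*, which activates latent TGF-beta (0.98, adjusted p = 0.0124), and the processing protease *Furin* (0.57, adjusted p = 0.00448), both named after their values were seen, were higher on it.

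All 13 intracellular inhibitors were tested, and 11 had a log2 fold change above 0, as 48.5% of all tested genes did, with 1 called and 5 past the adjusted p alone. The called gene was *Bambi*, a receptor decoy without a kinase, which is itself a BMP and TGF-beta target and stands in 2 of the lists. It had 3.44, 3.76 and 4.14 TPM in controls and 10.6, 9.76 and 8.72 TPM in Ptch1Prrx1 samples, a log2 fold change of 1.41 (SE 0.15, adjusted p = 0.00636), and it was called in every alternative fit. Higher on the adjusted p alone, and named after their values were seen, were *Tgif2* (0.67, adjusted p = 0.0105) and *Skil* (0.51, adjusted p = 0.0166). So were *Nedd4l* (0.30, adjusted p = 0.0307) and *Smurf1* (0.29, adjusted p = 0.0327). *Ppm1a*, a phosphatase of receptor Smads (0.07, adjusted p = 0.471), and *Strap* (0.14, adjusted p = 0.267) were not called.

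Among 11 tested TGF-beta response genes 3 were higher and 1 lower on the adjusted p, and among 7 BMP response genes beyond the members 1 was higher and 2 lower. The lower TGF-beta response gene was *Fn1*, named after its values were seen (-0.93, adjusted p = 0.0148). *Skil*, named likewise and also in the list of intracellular inhibitors, was higher on the adjusted p alone (0.51, adjusted p = 0.0166). *Junb*, which the immediate early list also holds, was higher by 0.73 (adjusted p = 0.0107), and *Tgfbi*, a matrix protein of the cornea, was not called (0.22, adjusted p = 0.139). *Dlx3*, a homeobox gene of epidermal differentiation, had 11.2, 19.8 and 19.4 TPM in controls and 4.92, 9.39 and 8.36 TPM in Ptch1Prrx1 samples, a log2 fold change of -1.11 (SE 0.26, adjusted p = 0.0355). *Id4*, the remaining Id gene, was lower on the adjusted p alone (-0.67, adjusted p = 0.0438), the opposite direction to *Id1*, and *Dlx5* was not called (-0.07, adjusted p = 0.852). *Id4* passed the adjusted p in 9 of 16 alternative fits and *Id1* in all 16. The E proteins that Id proteins bind did not pass the test, with *Tcf12* at 0.02 (adjusted p = 0.863) and *Tcf3* at -0.05 (adjusted p = 0.699). Over the 6 fits that left out 1 sample each, *Lefty1* stayed called in 1 (without control 3), *Dlx3* in 2 (without control 1 or Ptch1Prrx1 2), *Inhbb* in 3 (without control 3 or Ptch1Prrx1 1 or 3) and *Ltbp1* in 5 (adjusted p = 0.0795 without control 2), all in the same direction.

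**Figure D4:**
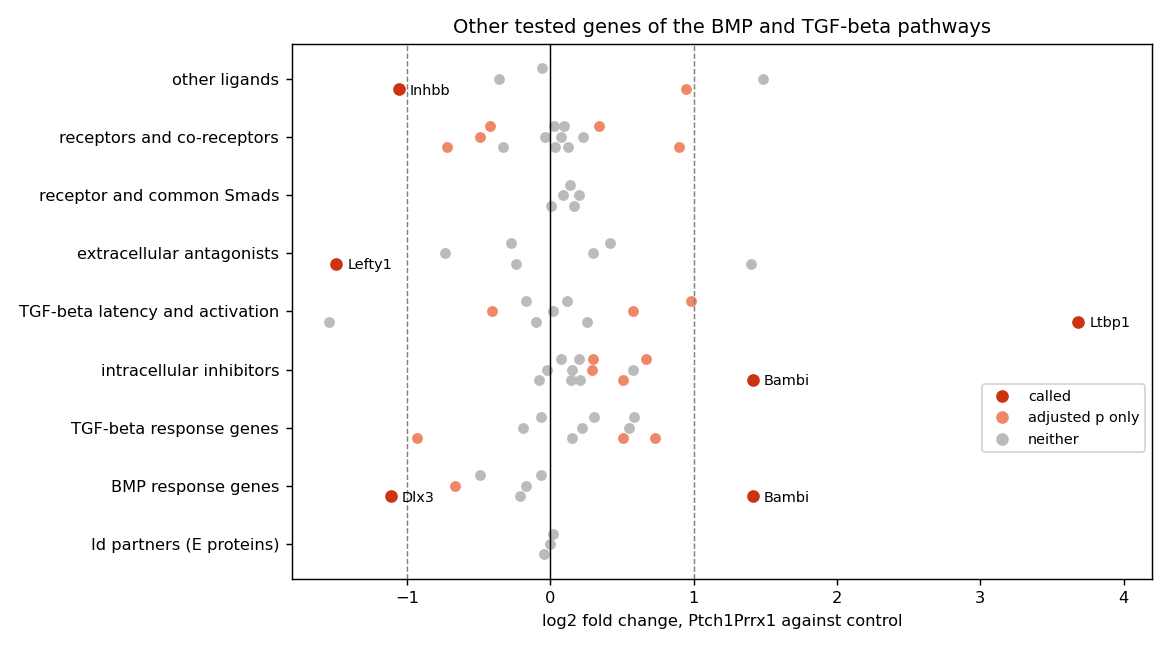
Log2 fold change of Ptch1Prrx1 against control epithelium for tested genes of the other pathway lists, 1 row per role, with dashed lines at a 2-fold change and the called genes named. *Ltbp1* (3.68) and *Bambi* (1.41) are the called genes to the right and *Lefty1* (-1.49), *Dlx3* (-1.11) and *Inhbb* (-1.06) those to the left.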

How the data were processed

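RNA of EDTA-separated corneal epithelium was measured in 3 control and 3 Ptch1Prrx1 samples, grouped by their titles. The authors deposited RSEM expected counts, TPM and FPKM per gene and their group averages; the submitters' processing notes name Bowtie2 2.2.5, RSEM 1.2.12 and mm9. FPKM and averages were not used, and 39.4% of expected counts above 0 were not whole, so they were rounded. edgeR 4.0.16 (R 4.3.3; TMM, filterByExpr, quasi-likelihood test) was fitted to all 6 samples, with Benjamini-Hochberg adjustment over 12999 genes; limma 3.58.1 and DESeq2 1.42.0 were alternatives, and the scripts were tested on simulated data. The thresholds were an adjusted p of 0.05 and 2-fold. Intervals are unadjusted. A two-sided exact permutation test of 3 against 3 cannot go below 0.1, so none was used. The study's methods call the samples biological replicates without saying how many animals each holds. The p-values judge the group difference against the spread between these samples. Promoters came from RefSeq, GRCm38.p6, not the files' build.

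The members and lists were chosen with earlier results of these data known. Named were all members, called pathway genes, the 2 most abundant uncalled genes of each list, the 3 genes most like each called member, and *Ptch1*. Marker genes were named where a value is given. Pathway genes named only after their values were seen are marked so. A called pathway gene is in the counts but is not reported here by name or in the plot of the lists.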

Additional observations from a re-analysis of the deposited data

How the results depend on the processing

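Over 141 alternative fits of the 9 tested members, 1 turned its direction: *Bmp7* ranged from -0.37 to 0.0151 with each sample left out, above 0 without Ptch1Prrx1 3. *Id1* passed the adjusted p in all 16 alternatives and *Id3* in 2. Over all tested genes the total called was 420. It was 234 by limma on log2(TPM + 1), 168 by the same without a TPM filter, 1822 with no minimum fold change, and 59 to 430 with each sample left out, with 59 without control 2 and 250 to 273 without control 1, control 3 or Ptch1Prrx1 1. Members called were 1 with at least 10 counts in every sample (*Smad7*, since the filter removes *Bmp2*), 0 on log2(TPM + 1), with or without the TPM filter, 1 on log2(TPM + 0.1), and 0 to 2 with each sample left out, 0 without Ptch1Prrx1 1. Members past the adjusted p alone were 1 to 4 with each sample left out. Other pathway genes called were 2 on log2(TPM + 1) without the filter, 22 with no minimum fold change and 1 to 6 with each sample left out. Uncalled pathway genes near 0 changed sign. *Ltbp4* was at -0.0239 without scaling, at -0.0328, -0.0337 and -0.0328 in the TPM fits, and at -0.19 to 0.13 with each sample left out. *Tcf12* was at -0.0277 without scaling, at -0.0240, -0.0244 and -0.0240 in the TPM fits, and at -0.0165 to 0.0568 with each sample left out. Over the same left-out samples *Dlx5* ranged from -0.19 to 0.19, *Smad3* from -0.00354 to 0.16 and *Tcf3* from -0.11 to 0.0177. The cause of these changes was not tested.

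What samples with the same replicate number share was not given in the sample titles. Their deviations from the group mean correlated at 0.105, -0.0137 and 0.0189, and 3 of 6 samples correlated best with their own number. These values, from 3 samples a group, neither show nor exclude a pairing. With the replicate block 390 genes, 2 members (*Bmp2* and *Smad7*) and 5 other pathway genes were called, *Lefty1* being lost (adjusted p = 0.0539). Low counts limit precision for *Bmp2* (9 to 44 a library) and *Bmp4* (1.01 to 15.1).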
